A study of Rattus norvegicus with 4 samples.

Results

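Chemokines are small secreted proteins that guide leukocytes towards the cells that release them. They are named by the spacing of their first cysteines (CC, CXC or CX3C), signal through G protein-coupled receptors on leukocytes, and are cleared by atypical receptors that bind them without such signalling. Inflammatory members such as Ccl2, Cxcl1 and Cxcl2 are switched on by the transcription factor NF-kB after tissue injury, whereas Cxcl12 is made by stromal cells in resting tissue. The question asked here is whether 9 chemokine genes of epithelium and stroma differed in the rat ventral prostate shortly after exposure to PhIP, as an early readout of inflammation. The genes were Ccl2, Ccl5, Ccl7, Ccl20, Cxcl1, Cxcl2, Cxcl10, Cxcl12 and Cx3cl1, and every probe set that the platform annotation gives exactly 1 symbol, that symbol being one of these, was taken, dim ones included. This gave 11 probe sets, of 20826 with a single symbol for 14217 genes: Cxcl12 had 3 and each of the other 8 genes had 1.

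The tissue came from male F344 rats, an inbred laboratory strain, aged 6 weeks. PhIP rats were given 300 mg/kg of this heterocyclic amine of cooked meat and killed after 2 days, and control rats of the same strain, sex and age were not given it. Each group held 4 rats, whose RNA was hybridized as 2 pools of 2 rats, 1 pool per array (PhIP 1 and PhIP 2, control 1 and control 2), and the unit of replication is a pool. Values are MAS5 signals on a linear scale, from arrays whose trimmed mean was about 100 each. Markers of the lobe and its luminal epithelium were present: the 9 measured of 10 listed, secretory proteins and keratins among them, had summed signals of 30428.3 and 31140 on the PhIP arrays and 28232.4 and 26609.4 on the control arrays. The ratio of 3′ to 5′ signal for actin, which is higher in degraded RNA, was 3.93 and 3.49 on the PhIP arrays, against 4.18 on control 1 and 5.71 on control 2. For GAPDH it was 1.45 and 1.44 on the PhIP arrays, against 1.34 on control 1 and 2.06 on control 2. Control 2 was thus highest by both, and control 1 lowest by GAPDH.

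Promoter sequence shows letters of the elements through which several of these genes are known to answer inflammation. RefSeq's promoter table (assembly GRCr8) held 7 of the 9 genes, Ccl2 and Ccl5 being the others. The 250 bases before the gene start were searched on both strands for the kB consensus of NF-kB and for a form of the interferon-stimulated response element, a pair of GAAA separated by 2 bases. Both were chosen with the promoters in view. The kB consensus was present in 5 of the 7 genes, Ccl7, Ccl20, Cxcl1, Cxcl2 and Cxcl10, and in 6.33% of the 33469 promoters of the table. The interferon form was present in Cxcl10 and in 3.41% of all promoters. Cxcl12 and Cx3cl1 held neither in that window. The stretches below are those with a match, from Ccl20 and Cxcl10, which were bright enough to test, and from Ccl7, Cxcl1 and Cxcl2, which were dim; they run 5′ to 3′ on the gene's strand, with matches in capitals. In Cxcl10 the first capitals are the interferon form, and matches on the 2 strands that overlap are merged in Cxcl1, Cxcl2 and Cxcl10.
Ccl20, chr9:91837055-91837094, + strand: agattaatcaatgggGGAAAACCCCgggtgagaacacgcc
Ccl7, chr10:67514021-67514060, + strand: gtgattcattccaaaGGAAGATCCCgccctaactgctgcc
Cxcl1, chr14:17479380-17479420, − strand: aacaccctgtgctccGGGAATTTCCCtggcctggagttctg
Cxcl2, chr14:17467304-17467344, − strand: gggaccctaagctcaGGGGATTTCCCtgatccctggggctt
Cxcl10, chr14:15988816-15988963, + strand: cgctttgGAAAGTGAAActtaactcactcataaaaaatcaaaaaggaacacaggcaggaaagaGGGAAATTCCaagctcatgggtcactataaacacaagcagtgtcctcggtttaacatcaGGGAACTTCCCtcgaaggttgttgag
The match begins 89 bases before the gene start in Ccl20, 84 in Cxcl1, 74 in Cxcl2 and 59 in Ccl7, while Cxcl10 has matches 187 and 128 bases before it. The letters describe these windows and say nothing of whether a factor was bound.

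None of the 4 chemokine genes that could be tested passed in either direction, and the other 5 of the 9 were too dim to test. Signals were analysed as log2(signal + 10), so that differences of dim genes are understated, and probe sets above the 40th percentile of mean level were tested with limma, with Benjamini-Hochberg adjustment over all 18625 of them at 0.05. Of the 11 chemokine probe sets, 5 were bright enough to be tested and 6 were not. Among the 5 tested, 0 passed the adjusted threshold, against 0.0268% of all tested probe sets, and 1 (Ccl20) had an unadjusted p under 0.05, against 13.0%. By direction, 4 of the 5 stood lower in PhIP, against 53.7% of all tested probe sets, and 1 higher. The groups were fully separated, with both PhIP arrays below both control arrays, in 3 of the 5, against 26.0% of all tested probe sets. No chemokine probe set of the 5 had both PhIP arrays above both control arrays, as 19.8% of all tested probe sets did. The median log2 difference of the 5 was −0.27, beside −0.03 over all tested probe sets.

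**Figure D1:**
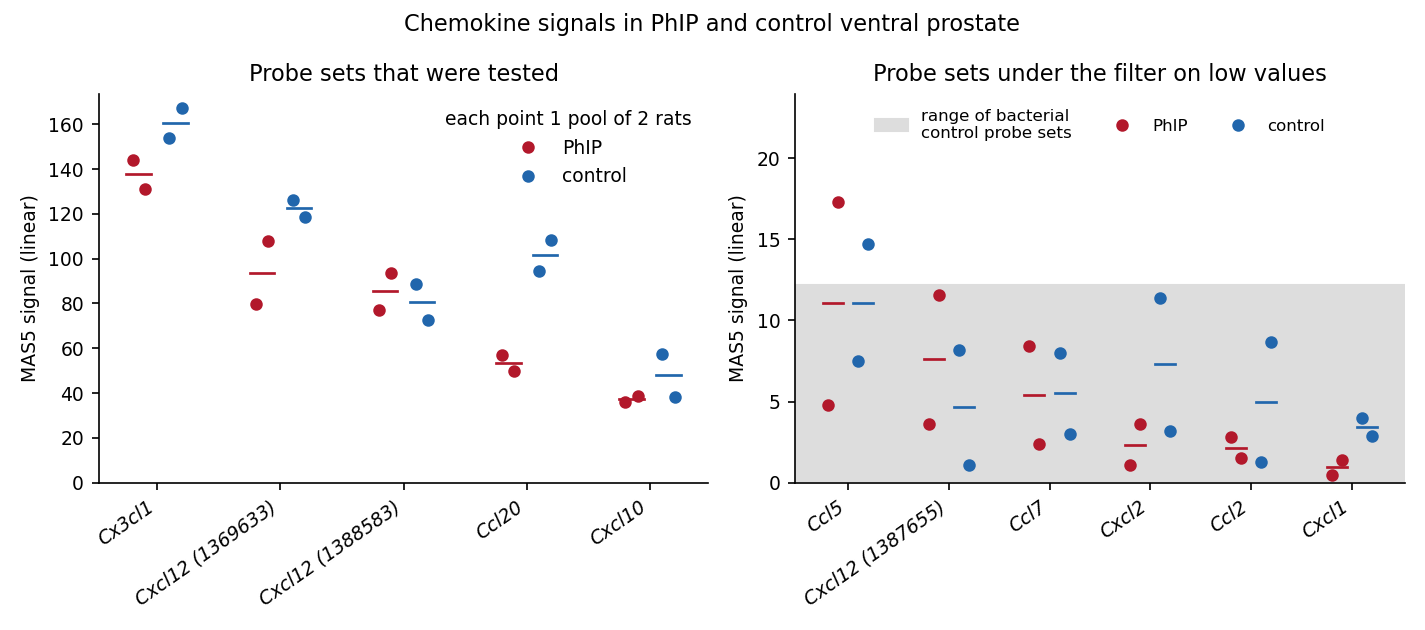
MAS5 signal (linear) of each chemokine probe set, with 1 point per pool of 2 rats and a bar at each group mean, PhIP left of control. Ccl20 lies at 49.8 and 57.1 in PhIP, below 94.5 and 108.5 in control, while the probe sets in the right panel lie mostly within the range of the bacterial control probe sets (grey, 0.1 to 12.2).

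Ccl20, a CC chemokine made by epithelia that draws cells carrying the receptor Ccr6, gave the lowest p of the 4 chemokine genes tested. Its signal was 57.1 on PhIP 1 and 49.8 on PhIP 2, against 94.5 on control 1 and 108.5 on control 2. Both PhIP pools lay well below both control pools, and the gap between the groups was wider than the spread within either. The means were 53.5 ± 5.16 in PhIP and 101.5 ± 9.90 in control (SD, n = 2 each). The mean signal in PhIP was 52.7% of that in control. The difference of log2(signal + 10) was −0.81 ± 0.17 (SE), with a 95% interval of −1.21 to −0.42. The limma p was 0.00153, and after adjustment over all probe sets it was 0.124. Of all tested probe sets, 1.32% had a log2 difference as low or lower. With 1 array left out, which leaves 1 pool in a group, the log2 difference stayed between −0.90 and −0.72. Its receptor gene Ccr6 was dim on every array, with signals of 6.0 and 1.1 in PhIP and 2.4 and 3.0 in control.

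Cxcl12, the stromal chemokine that retains leukocytes and progenitors carrying Cxcr4, was measured by 3 probe sets that did not give the same sign. Probe set 1369633_at had 79.6 and 108.0 in PhIP, against 126.2 and 118.7 in control. Here both PhIP pools lay below both control pools, but PhIP 2 was nearer to the control pools than to PhIP 1. Its log2 difference was −0.36 ± 0.18 (95% interval −0.77 to 0.05, adjusted p = 0.427), and it was −0.17 without PhIP 1, −0.56 without PhIP 2 and −0.14 after scaling to the hybridization controls. Probe set 1388583_at had 77.3 and 93.7 in PhIP, against 88.7 and 72.8 in control, and the groups overlapped. Its log2 difference was 0.07 ± 0.18 (95% interval −0.34 to 0.49, adjusted p = 0.879). Probe set 1387655_at was under the filter, with 3.6 and 11.6 in PhIP and 8.2 and 1.1 in control. In the first 2 probe sets the lower PhIP value was that of PhIP 1 and the higher control value that of control 1.

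Cx3cl1, or fractalkine, is anchored in the membrane of the cell that makes it and is released by the sheddases Adam10 and Adam17. Its signal was 144.2 and 131.1 in PhIP, against 153.7 and 167.2 in control. The groups did not overlap, but the nearest pools, PhIP 1 and control 1, were closer to each other than the 2 PhIP pools were. The means were 137.7 ± 9.26 and 160.5 ± 9.55 (SD, n = 2 each), and the log2 difference was −0.21 ± 0.14 (95% interval −0.53 to 0.11, adjusted p = 0.558). After scaling to the hybridization controls it was 0.020, of the opposite sign. The gene of its receptor, Cx3cr1, was under the filter, with 6.2 and 2.9 in PhIP and 7.4 and 16.8 in control. By the Euclidean distance of centred log2 values over the 4 arrays, the genes nearest to Cx3cl1 were Flvcr1 (a haem exporter, distance 0.024), Pnpla6 (a phospholipase, 0.029) and Aup1 (a lipid droplet protein, 0.029). Their log2 differences were −0.23, −0.21 and −0.21.

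Cxcl10, an interferon-induced chemokine that draws T cells and NK cells through Cxcr3, had signals of 35.8 and 38.8 in PhIP, against 57.5 and 38.3 in control. Control 1 stood apart from the other 3 pools, and the groups overlapped. The log2 difference was −0.27 ± 0.22 (95% interval −0.79 to 0.25, adjusted p = 0.630), and it was −0.03 without control 1, −0.51 without control 2 and −0.045 after scaling to the hybridization controls. Its receptor gene Cxcr3 had 32.9 and 26.1 in PhIP and 29.4 and 37.3 in control, also overlapping (−0.13 ± 0.22, adjusted p = 0.817), with a value near 0 after median centring.

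**Figure D2:**
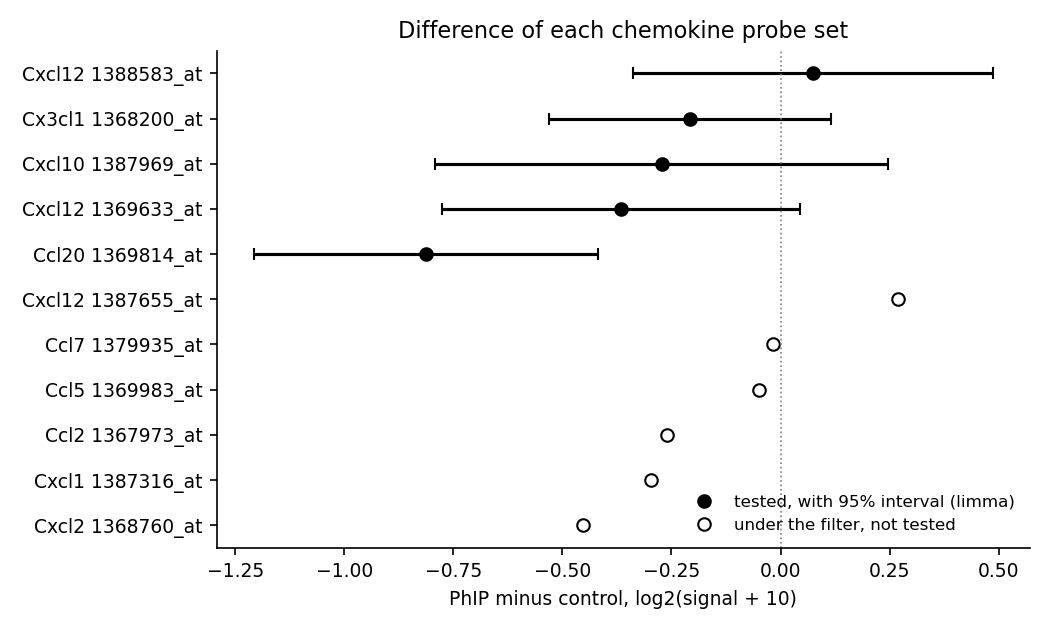
Log2 difference, PhIP minus control, of each chemokine probe set on the log2(signal + 10) scale, with 95% limma intervals for the 5 tested (filled) and without one for the 6 under the filter (open). Of the 5 intervals only that of Ccl20, −1.21 to −0.42, lies wholly below 0, and its adjusted p is 0.124.

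The classical inflammatory chemokines were dim in both groups. Ccl2 and Ccl7 draw monocytes through Ccr2, Ccl5 draws T cells and monocytes, and Cxcl1 and Cxcl2 draw neutrophils through Cxcr2. All 5 genes lay under the filter, so they have no test here, and their 95% intervals with no filter are given instead. Over these 5 genes and the third Cxcl12 probe set, signals ran from 0.5 to 17.3, and 22 of the 24 values were at or below 12.2. That was the highest signal of the 27 probe sets for bacterial transcripts that serve as the manufacturer's poly(A) controls, which ran from 0.1 with a median of 1.15. Whether those transcripts were added is not given in the sources used here, and the detection calls were not used here.

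For the monocyte chemokines, Ccl2 had 2.8 and 1.5 in PhIP, against 1.3 and 8.7 in control, and Ccl7, its neighbour on the chromosome, had 8.4 and 2.4 in PhIP, against 8.0 and 3.0 in control. The groups overlapped for both. Without the filter, the intervals of the log2 difference were −0.92 to 0.40 for Ccl2 and −0.71 to 0.68 for Ccl7. Ccl5 had 4.8 and 17.3 in PhIP, against 7.5 and 14.7 in control, and the PhIP pools enclosed the control pools (interval −0.96 to 0.86). Single arrays set the sign of all 3: with 1 array left out, the log2 difference ranged from −0.62 to 0.10 for Ccl2, from −0.30 to 0.27 for Ccl7 and from −0.49 to 0.39 for Ccl5. With 2 pools a group, true log2 differences anywhere within these intervals, 0 included, remain compatible with the values.

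For the neutrophil chemokines, which neighbour each other, Cxcl1 had 0.5 and 1.4 in PhIP, against 4.0 and 2.9 in control. Both PhIP pools lay below both control pools, as in 25.4% of all 31042 probe sets, and every value was within the bacterial range. Its log2 difference was −0.30 (interval with no filter −0.69 to 0.10, adjusted p = 0.609), and it was −0.90 with an added constant of 2 in place of 10, −0.16 both with a constant of 20 and after median centring, and −0.069 when scaled to the hybridization controls. Cxcl2 had 1.1 and 3.6 in PhIP, against 11.4 and 3.2 in control. Only control 1 stood above the rest, and the groups overlapped (interval with no filter −1.14 to 0.24); the log2 difference was −0.10 without control 1 and −0.80 without control 2. Neutrophil markers were as dim: all 7 measured genes of that list lay under the filter, none was listed at 0, and their summed signal was 25.8 and 26.9 in PhIP and 29.5 and 55.4 in control.

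Receptors of these chemokines were mostly dim as well, the tested ones being Cxcr3, Ccr1 and the atypical Ackr1, Ackr2 and Ackr3. Of 13 listed receptor genes, 12 were measured and 5 tested. None passed the adjusted threshold, while 3 had an unadjusted p under 0.05, all lower in PhIP, where 7.61% of all tested probe sets stood, and the same 3 had separated groups, lower in PhIP as in 26.0%. The median log2 difference of the 5 was −0.68. Ackr3, which scavenges Cxcl12, had 48.8 and 58.0 in PhIP, against 108.4 and 100.4 in control. The pools of each group lay close together and the groups far apart. Its log2 difference was −0.85 ± 0.17 (95% interval −1.24 to −0.46, adjusted p = 0.114), and with 1 array left out it ran from −0.96 to −0.75.

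Ackr1, which carries chemokines on venular endothelium and red cells, had 11.0 and 17.9 in PhIP, against 33.9 and 29.8 in control (−0.79 ± 0.25, adjusted p = 0.267). Ackr2, a scavenger of inflammatory CC chemokines, had 16.3 and 16.8 in PhIP, against 34.2 and 30.8 in control (−0.68 ± 0.22, adjusted p = 0.280), and its second probe set, under the filter, overlapped between groups. So the 3 atypical receptors that were tested all stood lower in PhIP without passing. The signalling receptor Ccr1 overlapped, with 15.0 and 18.4 in PhIP and 21.5 and 12.0 in control (0.02 ± 0.28, adjusted p = 0.984). Under the filter were Ccr2 (0.9 and 1.8 in PhIP, 1.1 and 3.0 in control), Cxcr2 (1.5 and 6.7 in PhIP, 4.7 and 3.8 in control) and the brightest probe set of Cxcr4 (14.4 and 13.3 in PhIP, 8.8 and 15.8 in control). Ccr3 and Cxcr1 were there too, with signals of 1.1 to 15.2 over both genes and all arrays. Cx3cr1 and a dimmer probe set of Cxcr4, also under the filter, had separated groups, lower in PhIP. Of all 31042 probe sets, 25.4% did.

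**Figure D3:**
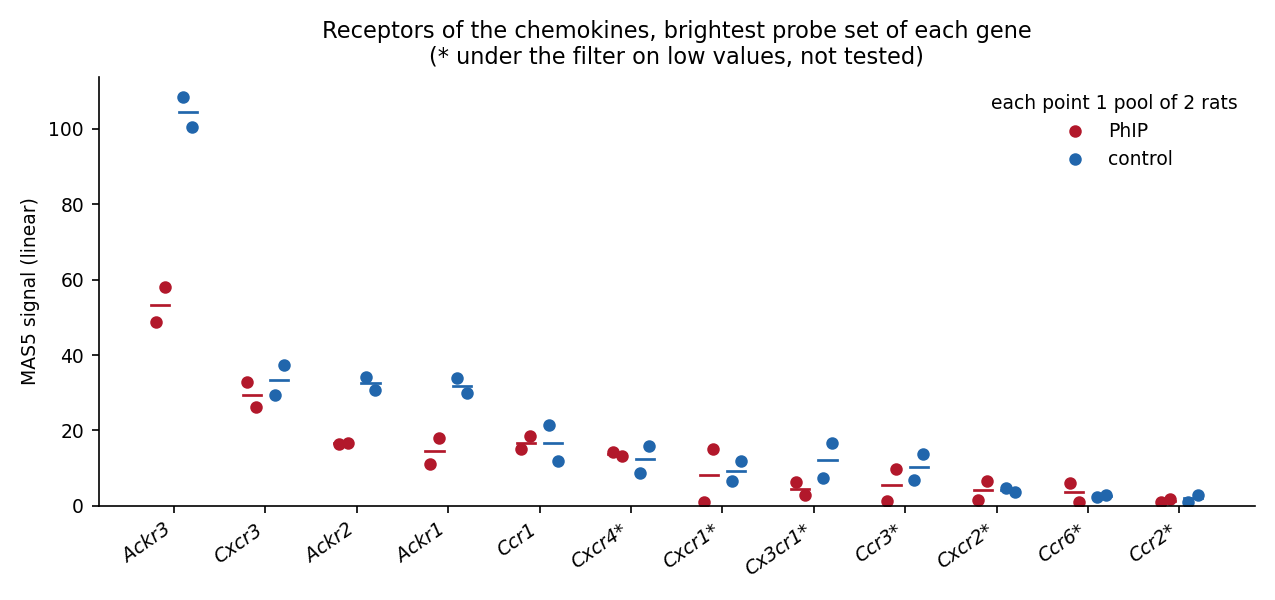
MAS5 signal (linear) of the brightest probe set of each receptor gene, with 1 point per pool of 2 rats and a bar at each group mean, PhIP left of control. Ackr3 lies at 48.8 and 58.0 in PhIP, below 108.4 and 100.4 in control; the 7 genes marked with an asterisk were under the filter.

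Among other chemokine ligands, 22 of 26 listed genes were measured and 9 tested. None passed the adjusted threshold, and 1 had an unadjusted p under 0.05, lower in PhIP (against 7.61% of all tested probe sets). Of the 9 tested, 4 had separated groups, all lower (against 26.0%), and the median was −0.25. Among the 13 dim ligands under the filter, separation went both ways in the brightest probe sets. Cxcl13 (8.3 and 29.8 in PhIP, 3.2 and 2.1 in control) and Xcl1 (4.0 and 6.3 in PhIP, 0.7 and 1.6 in control) stood higher. Ccl17, Ccl19, Ccl22, Ccl24, Cxcl6 and Ppbp stood lower, and none of these has a test. Over all 31042 probe sets, dim ones included, 25.4% were separated lower. The share separated higher was counted only over tested probe sets, where it was 19.8%. Cxcl14, a chemokine of resting epithelium, had 803.9 and 796.6 in PhIP, against 958.5 and 1017.4 in control. Its pools agreed closely within each group, and the log2 difference was −0.30 ± 0.09 (adjusted p = 0.234). With 1 array left out the log2 difference ran from −0.34 to −0.26. The difference was −0.07 after scaling to the hybridization controls. Another tested probe set of Cxcl14, far dimmer, had 24.1 and 14.8 in PhIP, against 26.4 and 6.1 in control. There the groups overlapped and the sign was opposite (0.26 ± 0.40, adjusted p = 0.801). Cxcl16, which binds Cxcr6 and is tethered like Cx3cl1, stood at −0.38 ± 0.18 (adjusted p = 0.421), and Ccl6, a rodent CC chemokine of myeloid cells, at 0.49 ± 0.28 (adjusted p = 0.489) with overlapping groups, and at 0.83 without control 1 and 0.15 without control 2.

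The cytokines that induce chemokines gave no call either. Of 11 listed genes, 10 were measured and 3 tested, with 0 at an unadjusted limma p under 0.05, against 13.0% of all tested probe sets. Tnf lay under the filter, with 1.2 and 0.8 in PhIP and 16.8 and 12.8 in control in its brighter probe set. Its other probe set had 10.8 and 1.0 in PhIP and 1.3 and 9.3 in control, so the separation in the first was not seen in the second. With no filter, the log2 difference of the first was −1.17 at an adjusted p of 0.275. Il1b had 14.4 and 12.7 in PhIP, against 18.8 and 21.9 in control, which did not overlap (−0.37 ± 0.24, adjusted p = 0.558). Il6 was dim throughout, with 1.0 and 5.6 in PhIP and 0.7 and 1.0 in control, and the alarmin gene Il33 stood at −0.21 ± 0.13 (adjusted p = 0.519).

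The NF-kB pathway, which acts through kB elements of the kind printed here, was split in direction. Of 20 listed genes, 17 were measured and 15 tested. Among the 15, 8 stood higher and 7 lower in PhIP, where 53.7% of all tested probe sets stood lower, and the median was 0.02. The adjusted threshold was passed by 0, and 0 had an unadjusted limma p under 0.05, against 13.0% of all tested probe sets. Separated groups were found in 5 higher and 5 lower, where 19.8% and 26.0% of all tested probe sets stood. Nfkbia, the inhibitor that NF-kB itself induces, had 257.1 and 207.5 in PhIP, against 173.9 and 282.4 in control, where the control pools enclosed the PhIP pools (0.06 ± 0.22, adjusted p = 0.930). The kinase gene Ikbkb stood at 0.32 ± 0.16 (adjusted p = 0.447), and the subunit genes Relb and Nfkb1 at −0.41 ± 0.21 (adjusted p = 0.470) and −0.24 ± 0.13 (adjusted p = 0.473).

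Leukocyte adhesion genes, which act after chemokines in recruitment, gave 6 tested of 9 measured genes, all 6 below 0 in PhIP minus control, as were 53.7% of all tested probe sets, with a median of −0.27 and 0 past the adjusted threshold. The integrin gene Itgb2, carried by leukocytes, had 19.6 and 22.1 in PhIP, against 32.9 and 45.8 in control (−0.67 ± 0.23, adjusted p = 0.299) and was the only one at an unadjusted p under 0.05, against 7.61% of all tested probe sets in that direction. The endothelial genes Pecam1 (−0.43 ± 0.20, adjusted p = 0.417) and Icam2 (−0.25 ± 0.22, adjusted p = 0.650) followed. The NF-kB-induced adhesion genes Icam1, with 17.3 and 30.6 in PhIP and 26.8 and 34.7 in control, and Vcam1, with 27.0 and 13.8 in PhIP and 30.2 and 16.3 in control, overlapped between groups.

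Genes that release, cut or present chemokines gave 7 tested of 9 measured, with 0 past the adjusted threshold and a median of −0.10. At an unadjusted p under 0.05 there were 1 higher and 1 lower, where 5.36% and 7.61% of all tested probe sets stood. Adam10, a sheddase of Cx3cl1 and Cxcl16, had 72.2 and 54.6 in PhIP, against 39.6 and 42.2 in control (0.52 ± 0.20, adjusted p = 0.341). Hspg2, the heparan sulfate proteoglycan perlecan, had 93.6 and 88.5 in PhIP, against 122.3 and 153.4 in control (−0.54 ± 0.16, adjusted p = 0.246). With 1 array left out its log2 difference ran from −0.69 to −0.39. Mmp2, a protease that cuts Ccl7 and Cxcl12, stood at −0.32 ± 0.15 (adjusted p = 0.409). Its log2 difference was −0.18 without control 2 and −0.097 after scaling to the hybridization controls.

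**Figure D4:**
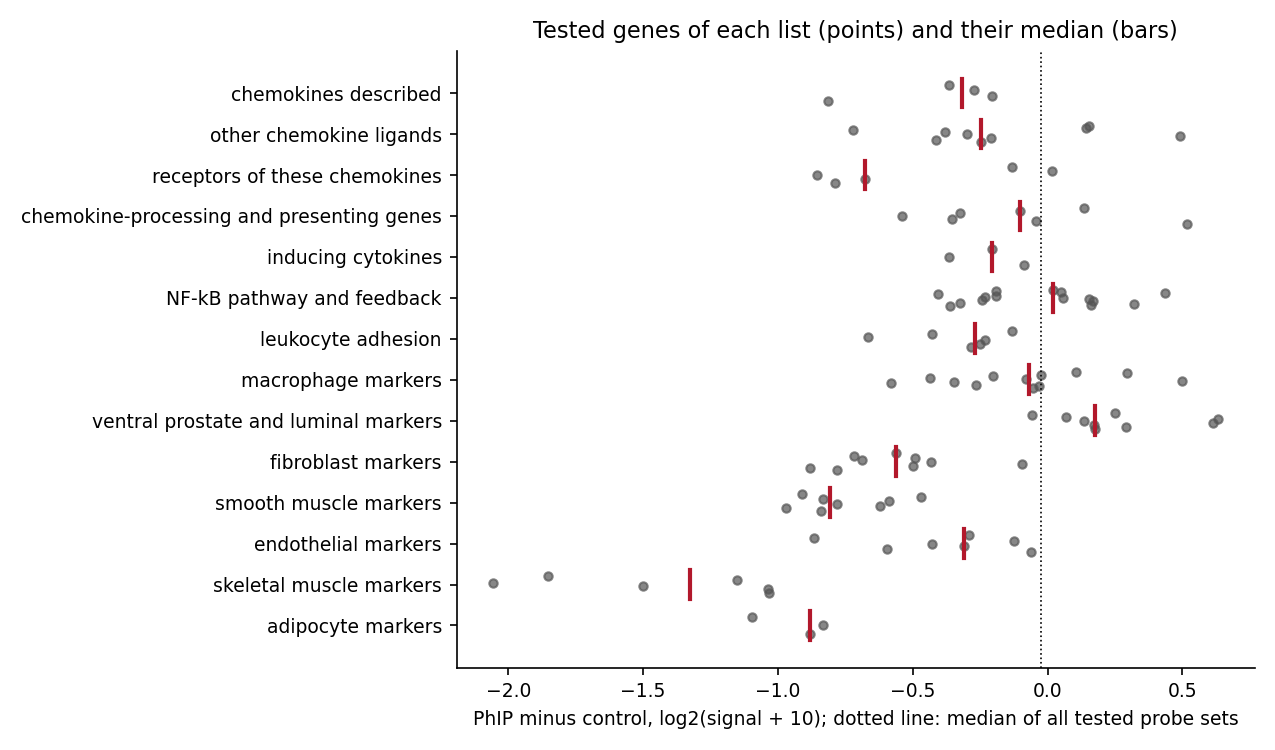
Log2 difference, PhIP minus control, of each tested gene (points, brightest probe set) in each list, with the list's median as a bar and the median of all tested probe sets (−0.03) as a dotted line. Every list has its median below that line except the NF-kB list (0.02) and the luminal markers (0.17). The chemokine median drawn here is −0.32, as only the brightest probe set of Cxcl12 is counted.

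Markers of cell types differed between the groups beside these values. Separated groups were found, lower in PhIP, in 26.0% of all tested probe sets and, higher in PhIP, in 19.8%. Of the fibroblast markers, 8 of 9 had separated groups, all lower in PhIP, and their summed signal was 7493.6 and 7640.1 in PhIP, against 12503.7 and 9940.2 in control. Smooth muscle markers stood lower in 8 of 8 genes, with sums of 4133.5 and 4070.6 in PhIP, against 6788.2 and 6815.2 in control. Endothelial markers stood lower in 7 of 7, with separated groups in 5 and sums of 226.6 and 234.8 in PhIP, against 312.2 and 327.6 in control. Luminal markers had separated groups, higher in PhIP, in 8 of 9 by their brightest probe sets. The probe sets of Andpro, a gene counted there as higher, did not give the same direction. Its brightest had 9991.8 and 10345.2 in PhIP, against 9216.5 and 8807.6 in control. Another was separated the other way, with 7650.1 and 8284.3 in PhIP, against 8513.1 and 9537.1 in control. So was a dimmer one, with 3178 and 3259.5 in PhIP, against 3383.4 and 3824.4 in control. The remaining one overlapped. Skeletal muscle markers had the lowest median of these lists, −1.33 over 6 tested genes, all below 0 and 4 of them with separated groups. Their sums were 503.7 and 430.1 in PhIP, against 913.9 on control 1 and 1662.7 on control 2, with actin Acta1 at −1.03 and troponin Tnnc2 at −1.15. Myh4 and Myl1, whose groups overlapped, were high on control 2 alone (164.6 and 305.6), with 0.5 and 5.2 on control 1. Adipocyte markers had a median of −0.88 over 3 tested genes, 2 with separated groups, lower, and sums of 83.1 and 154.2 in PhIP, against 309.1 and 195.5 in control. Macrophage markers were mixed, with 3 separated upwards and 4 downwards of 12, 9 below 0 and a median of −0.07. Their sums were 7007.5 and 6958 in PhIP and 5757.8 and 5707.5 in control, most of it Lyz2, a lysozyme gene, with 5321.2 and 5372 in PhIP and 4465.1 and 4256.6 in control. Cd14 had 1221.6 and 1163.1 in PhIP and 796.7 and 885.1 in control. The third macrophage marker separated upwards was Mrc1, and the 4 separated downwards were C1qa, C1qb, C1qc and Cd68. None of these genes was listed at 0 on any array, and none passed the adjusted threshold. The part of these cell types in the values of Ccl20, Cxcl12, Cxcl14 and the Ackr genes was not tested, and in tissue RNA fewer cells of a type and less RNA per cell cannot be told apart. T cell markers gave 3 tested of 9 genes, all with overlapping groups in their brightest probe sets. Another tested probe set of 1 of them, Cd247, had separated groups, lower in PhIP. The 5 measured NK cell markers were all under the filter.

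**Figure D5:**
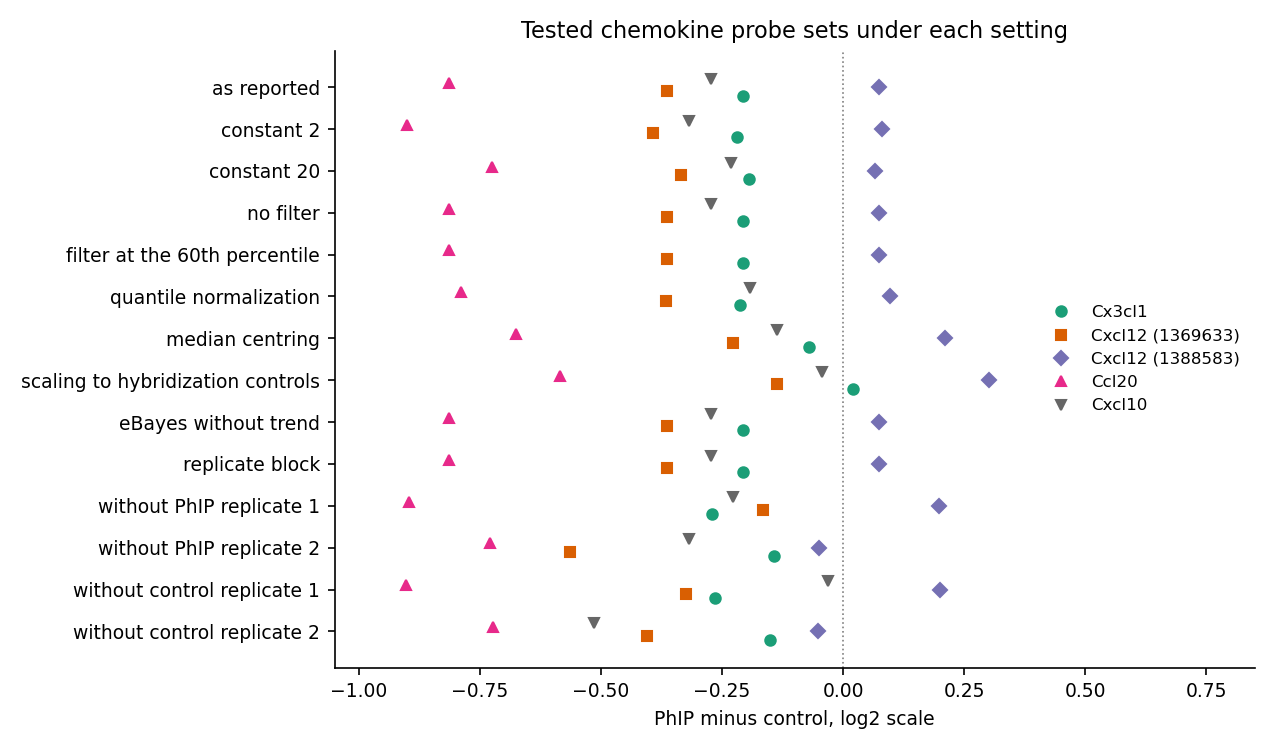
Log2 difference, PhIP minus control, of the 5 tested chemokine probe sets (symbols) as reported and under each alternative setting (rows); a row has no Cxcl10 symbol where the stricter filter removed it from the test. Ccl20 stays between −0.90 and −0.59 in every row, while Cxcl12 1388583_at and Cx3cl1 each cross 0 in at least 1.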

How the data were processed

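The deposited values are MAS5 intensities (linear signals), with 1 value for each probe set on an array; the method is named in the submitters' processing notes. The scaling target is not given in the sources used here. Of 31099 probe sets, 20832 carried 1 gene symbol in the platform annotation, 436 several and 9831 none, and RefSeq (GRCr8) held the Entrez identifier of 20764 of the single-symbol ones, changing 0 symbols. The 57 control probe sets were left out, leaving 31042. From log2(signal + 10), probe sets above the 40th percentile of the mean (18625, signal plus constant over 24.3) were tested with limma 3.58.1 in R 4.3.3 (eBayes with an intensity trend, 2 residual degrees of freedom), two-sided; the fit was first tested on simulated data. Lists use each gene's brightest probe set and have no set test. The genes, lists and tests were chosen with earlier results of these data known. Named genes are every chemokine probe set, up to 3 genes per list by moderated statistic, the receptors and 6 set genes. Of 59 genes beyond the chemokines so taken, those with values in the text number 35. Dim chemokine ligands under the filter, Andpro, Myh4, Myl1, C1qa, C1qc, Cd68 and Mrc1 were named outside this rule, where groups, probe sets or arrays differed. Alternatives were other constants (2 or 20), filters (none, 60th percentile), normalizations, no trend, the replicate number as a block, and leaving out each array. Labels do not say whether pools shared litters or days, so p-values measure only the spread between these pools. The number of arrays limits the precision. Plots used Python 3.11.15 and matplotlib 3.10.9.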

Additional observations from a re-analysis of the deposited data

How the results depend on the processing

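The count of calls over all tested probe sets, 5 as reported, was 5 with a constant of 2, 22 with a constant of 20, 44 with the filter at the 60th percentile, 165 after scaling to the hybridization controls, 35 with the replicate block, and 0 with median centring, quantile normalization, no filter or eBayes with no trend; leaving out 1 array it ranged from 0 to 2334 (0 without PhIP 1 or PhIP 2, 462 without control 2, 2334 without control 1). Among the chemokine probe sets the count stayed at 0 under each of these 9 other settings, the replicate block included, and ranged from 0 to 1 with an array left out, the 1 being Ccl20 without control 1. Among the genes around them it was 0 under the same 9 and ranged from 0 to 4 with an array left out: Ackr3, Cxcl14, Hspg2 and Mmp2 without control 1, and Ackr3 alone without control 2. The labels do not tie same-numbered pools together, and the correlation of their deviations from the group means was −0.06. Median centring and scaling to the hybridization controls raised the median of all tested probe sets to 0.11 and 0.20. Among tested probe sets, signs were opposite for Cx3cl1 (0.020), Il33 (0.020) and Cxcr3 (0.094) after scaling to the hybridization controls, for Cxcr3 after median centring (0.0029), and for Vcam1 after quantile normalization (0.024), median centring (0.0045) and scaling to the hybridization controls (0.096). With an array left out, values ranged from −0.053 to 0.20 for Cxcl12 1388583_at, from −0.24 to 0.28 for Ccr1, from −0.45 to 0.19 for Vcam1, from −0.57 to 0.0015 for Icam1 and from −0.28 to 0.39 for Nfkbia. Among chemokines under the filter, Ccl5 and Ccl7 stood above 0 after quantile normalization (0.078 and 0.059), median centring (0.088 and 0.12) and scaling to the hybridization controls (0.18 and 0.21); with an array left out Ccl2, Ccl5, Ccl7 and Cxcl12 1387655_at (−0.087 to 0.63) each took both signs. The dim receptor genes Ccr2, Cxcr1 and Cxcr2, below 0 as reported, stood at 0.14, 0.031 and 0.19 on scaling to those controls. Of the cell type markers named, none passing as reported, Acta1, Tnnc2, Lyz2 and Cd14 each passed without control 1 and without control 2 (highest adjusted p = 0.0355 by limma, for Lyz2), Acta1 also with the 60th percentile filter (0.0458) and the replicate block (0.0383), and Tnnc2 and Cd14 with the hybridization controls (0.0424 and 0.0274). The causes were not tested.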
